A study of Mus musculus with 27 samples.

Results

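The 480 lost Ser2P peaks are regions of the mouse genome with a called peak of RNA polymerase II (Pol II) phosphorylated on serine 2 in both control libraries and in neither WDR43 knockdown library. A peak that was not called does not show that this form of Pol II was absent. A peak belonged to them when it stood in the first control list (shCtl-1), shared at least 1 bp with a peak of the second (shCtl-2), and shared none with a peak of either list from cells carrying a short hairpin RNA against WDR43 (shWDR43-1 and shWDR43-2). Of 3878 peaks in shCtl-1, 2901 were also in shCtl-2. Of these, 480 (16.5%) were lost and 2421 kept. The members were chosen by presence and absence in the 4 Ser2P lists, so the Ser2P values below describe them and are given with no test. The cells were mouse embryonic stem cells grown with leukemia inhibitory factor. The knockdown and the control hairpin (shCtl) were both used in cells of wild-type genotype as far as the labels state it (for Ser5P, hypophosphorylated Pol II of shCtl and RNA), and the labels of the Ser2P libraries give only the cells and the antibody. Pol II was mapped by chromatin immunoprecipitation sequencing (ChIP-seq) in 2 shWDR43 and 2 shCtl libraries for each form. The labels do not say whether the numbers 1 and 2 are replicate cultures or different hairpins, so a spread between such libraries may be technical. WDR43 itself was mapped with a FLAG antibody, in 1 library each, in Fbio-tagged cells treated with actinomycin D (ActD), DRB or the solvent DMSO, in FB-tagged cells and in a cFB knock-in. RNA was sequenced from 2 shWDR43 and 2 shCtl cultures, called biological replicates in the header of the table.

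Pol II carries a long repetitive tail on its largest subunit, and the phosphates on that tail change as it moves along a gene. Serine 5 phosphorylation (Ser5P) is placed near the start of transcription. Serine 2 phosphorylation (Ser2P) builds up during elongation and is commonly highest near and beyond the polyadenylation site, where 3′ end processing factors bind the tail. Antibody 8WG16 prefers the tail with little phosphate (hypoP), which is found mostly at starts. WDR43 is a WD-repeat protein that works in the nucleolus, in the processome that handles ribosomal RNA precursors. DRB inhibits the kinase that releases paused Pol II, and ActD blocks transcription by binding DNA.

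A small set of the lost peaks lay at core histone genes, and some of these peaks covered a gene start. Printed are 3 of the promoters there, because their genes moved in different directions or share a start region. The peaks lie on mm9 coordinates, for which no genome was used here. The promoters are from RefSeq (GRCm38.p6), from 250 bases before to 50 after the start, matched by gene. Capitals mark the TATA box TATAAA, the CCAAT box, the GC box GGGCGG and the octamer ATTTGCAT on either strand, and no marked motif overlaps another. Hist1h2bk (H2bc12 in RefSeq, chr13:22035571-22035870, plus strand) and its divergent neighbour Hist1h2ah share 277 bases of this window, so that 1 sequence serves both genes.
Hist1h2bk: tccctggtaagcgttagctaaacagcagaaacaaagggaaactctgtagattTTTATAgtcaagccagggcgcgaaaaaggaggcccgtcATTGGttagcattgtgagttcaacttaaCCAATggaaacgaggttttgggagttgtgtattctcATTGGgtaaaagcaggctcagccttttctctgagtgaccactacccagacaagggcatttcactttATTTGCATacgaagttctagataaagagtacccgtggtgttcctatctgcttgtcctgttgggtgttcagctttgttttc
Hist1h2bg (H2bc8, chr13:23571150-23571449, plus strand) and its divergent neighbour Hist1h2ae share 279 bases.
Hist1h2bg: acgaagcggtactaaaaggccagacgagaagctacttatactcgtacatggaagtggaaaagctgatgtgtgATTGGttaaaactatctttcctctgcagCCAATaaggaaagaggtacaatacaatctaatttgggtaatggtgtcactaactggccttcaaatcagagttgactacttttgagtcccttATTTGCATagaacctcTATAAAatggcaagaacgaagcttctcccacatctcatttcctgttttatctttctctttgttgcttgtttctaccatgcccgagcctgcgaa
Hist1h4i (H4c9, chr13:22041313-22041612, minus strand) encodes another core histone.
Hist1h4i: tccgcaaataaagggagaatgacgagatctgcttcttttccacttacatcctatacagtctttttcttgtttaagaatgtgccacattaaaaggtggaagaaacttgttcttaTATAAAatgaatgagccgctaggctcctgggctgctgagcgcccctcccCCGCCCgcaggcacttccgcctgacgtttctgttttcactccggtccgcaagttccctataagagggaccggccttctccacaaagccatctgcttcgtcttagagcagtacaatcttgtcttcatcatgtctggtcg
Both windows with a shared start held the octamer ATTTGCAT, which is known from histone promoters, in addition to the CCAAT box on both strands. Starts of 37 tested coding genes with a RefSeq orientation lay inside a lost peak, and their 48 RefSeq promoters held the TATA box in 16.7%, the CCAAT box in 47.9%, the GC box in 68.8% and the octamer in 8.33%. The 608 promoters of 490 genes that started inside a kept peak held them in 6.41%, 40.6%, 68.1% and 1.64%. Among all 32851 promoters the shares were 13.6%, 37.4%, 35.7% and 1.74%. The median GC content was 61.0% in promoters at lost peaks, 61.3% at kept peaks and 52.7% in all. Divergent pairs count their shared bases in both genes. All 4 promoters with the octamer at lost peaks were those of Hist1h2bk, Hist1h2ah, Hist1h2bg and Hist1h2ae, whose shared windows are printed above. The octamer share at lost peaks therefore describes only those windows. Of the 8 promoters with the TATA box at lost peaks, most were histone promoters too. They include those of Hist1h2bk, Hist1h2bg, Hist1h4i, Hist1h4d and Hist1h3h, so the TATA share at lost peaks is mostly that of histone genes. The motif shares were not tested.

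The lost peaks were mostly the weaker and narrower peaks of the control list. Scores are the authors' and start at 50 in every list. Lost peaks had a median score of 66.7 in shCtl-1 (quartiles 57.2 and 80.3, highest 205.9), against 101.9 for kept peaks (74.9 and 149.9). Their median score in shCtl-2 was 73.5, against 111.0 for kept peaks. The median width was 1612 bp for lost and 2244 bp for kept peaks. Of shared control peaks with a score from 50 to 60, 41.4% were lost (95% exact Clopper-Pearson interval 36.5 to 46.4), and the share was 29.4% (25.6 to 33.5) from 60 to 75, 16.8% (14.1 to 19.9) from 75 to 100 and 3.42% (2.49 to 4.56) from 100 up. Those intervals, like all intervals of shares here, cover counting error only. Only 44 lost peaks scored 100 or more, against 1244 kept ones. The read depth of the ChIP libraries is unknown, and its part in the loss was not tested.

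**Figure D1:**
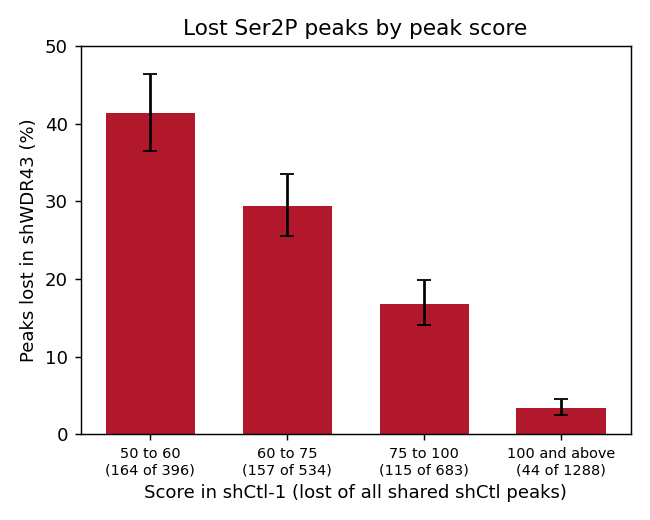
Share of shared shCtl Ser2P peaks that had no peak in either shWDR43 list (vertical axis, %), by score in shCtl-1 (horizontal axis). Bars are shares with exact 95% intervals, and the share is 41.4% in the lowest and 3.42% in the highest class.

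Loss has to be read against how far replicate lists differ. Of the shWDR43-1 peaks, 1036 (29.6%) were absent from shWDR43-2, and of the shCtl-1 peaks 977 (25.2%) were absent from shCtl-2. Another 545 shared control peaks were found in 1 shWDR43 list only, 259 of them in shWDR43-1 and 286 in shWDR43-2, and count as kept. The reverse rule, peaks in both shWDR43 lists and neither shCtl list, gave 222 of 2465 (9.01%). The shWDR43 lists held 3501 and 3504 peaks, against 3878 and 4319 in shCtl. With 1 shWDR43 list left out, 739 or 766 peaks were lost. Dropping shCtl-2 gave 1067, and dropping shCtl-1 gave 1398.

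Few lost peaks lay close to a Ser2P peak of the knockdown, and by the rule none could touch one. The distances were not set against those of other regions. The nearest shWDR43 peak was a median of 86615 bp away, 227 lost peaks had none within 100 kb, and 3 had one within 1 kb. The members nearest to the limit of the rule were the peak at the 3′ end of Txndc9, a thioredoxin domain gene (gap of 353 bp, score 59.4), one outside loci on chromosome 11 (450 bp, 68.7) and one beside Uqcrq, a subunit of respiratory complex III (918 bp, 88.8). Just outside the rule were kept peaks at XLOC_016161, at AK145544 and Gm7822, and between Ankfy1 and Ube2g1, which overlapped a shWDR43 peak by 94, 99 and 105 bp. On the control side the smallest overlap of a member with shCtl-2 was 165 bp, past the 3′ end of Smek1, a subunit of protein phosphatase 4.

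Members lay on all autosomes and X, with 39 on chromosome 5, 34 on chromosome 11 and 32 on chromosome 13. As a share of shared control peaks the loss ran from 10.8% on chromosome 8 to 24.4% on chromosome 13. A further 5 lay on unplaced sequence of chromosomes 1 and Y. The peaks were scattered: 22 lay within 20 kb of another lost peak and 69 within 20 kb of a kept peak. The highest score, 205.9, belonged to a narrow 291 bp peak outside any locus (chromosome 3, 6116022 to 6116312, mm9) that also held peaks in 7 of the 13 other lists, all 4 Ser5P lists among them. The next was a 6093 bp peak (score 169.1) spanning the end of Zfp57, a zinc finger factor that keeps genomic imprints, and the neighbouring Mog, a myelin gene. Peaks of 149.8 at Xkr8 and Smpdl3b, 149.0 at Fdps and 140.6 past Chac1 followed, apart from 1 more narrow peak outside loci (362 bp, score 149.9, chromosome 1). The widest members were 6571 bp over 1 end of Scd2, a fatty acid desaturase, and 6526 bp past Utf1, a chromatin factor of pluripotent cells, with scores of only 57.9 and 51.9.

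The largest share of lost peaks, 230 of 480 (47.9%, 43.4 to 52.5), lay at a 3′ end of a gene or up to 5 kb past it, as did 45.8% of kept peaks (43.8 to 47.8). Of the 480, 320 (66.7%) lay at a protein-coding locus widened by 1 kb and 125 at no locus of the table. Strand was taken from RefSeq for 8644 of the 10669 tested coding loci (81.0%), and for 283 of the 335 at lost peaks. By the peak centre, 89 lost peaks (18.5%, interval 15.2 to 22.3) lay within 1 kb of a 3′ end, and 141 (29.4%, 25.3 to 33.7) from there to 5 kb downstream. The shares of kept peaks were 22.6% (21.0 to 24.4) and 23.2% (21.5 to 24.9). Starts held 28 lost peaks (5.83%, 3.91 to 8.32), against 14.5% of kept peaks (13.2 to 16), and gene bodies 5.63%, against 6.65%. A further 11 lost peaks (2.29%) lay upstream of a start, against 1.36% of kept peaks. The remaining 184 (38.3%) were elsewhere, which includes genes with no orientation.

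The fullest 1 kb step for lost peaks was from 1 to 2 kb past a 3′ end, with 21.9% of them, against 17.6% of kept peaks. From 0 to 1 kb it was 13.3% of lost and 18.8% of kept peaks. With both classes held to scores under 100, starts still had 6.19% of 436 lost peaks (4.12 to 8.88) and 13% of 1177 kept peaks (11.1 to 15.1), and the downstream zone 28.9% and 25.7%, with intervals that overlap. No test across samples is possible for the position of peaks chosen this way.

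**Figure D2:**
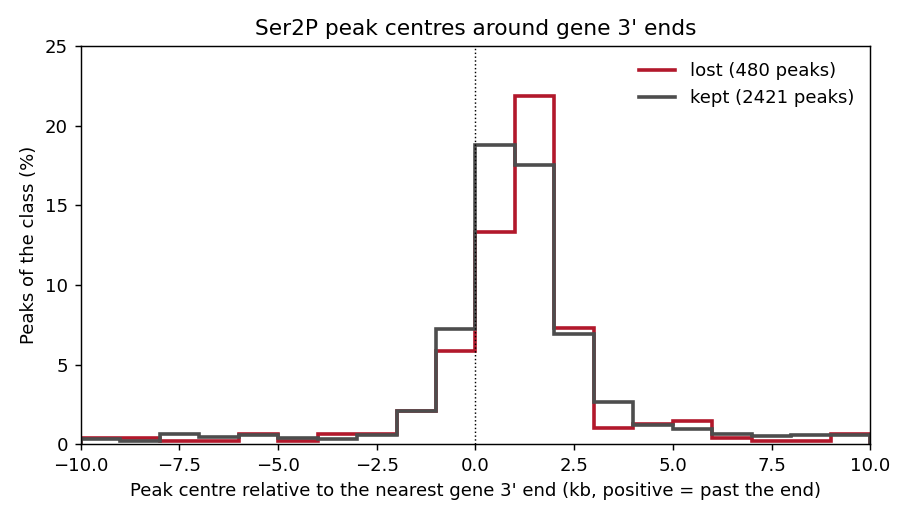
Distribution of Ser2P peak centres around the nearest 3′ end of a tested coding gene, in steps of 1 kb (horizontal axis, kb; positive is past the end), as a share of all peaks of the class (vertical axis, %). Lost peaks reach 21.9% at 1 to 2 kb, kept peaks 18.8% at 0 to 1 kb.

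The lost peaks had other peaks on them less often than the kept peaks. Overlap counts from 1 bp, and lost peaks were narrower (median 1612 bp, against 2244 bp). The part of width in these shares was not tested. No peak of any of the 13 other lists touched 266 of them (55.4%), against 758 kept peaks (31.3%). WDR43 peaks overlapped 28.1% of lost peaks in the FB map (24.1 to 32.4), 17.9% in the cFB knock-in and 20% under DMSO, against 50.1%, 41.1% and 41.8% of kept peaks. At least 1 of these 3 maps had a peak at 161 lost peaks (33.5%), against 58.2% of kept peaks. Under DRB it was 17 of 480 (3.54%), against 10.04% of kept peaks. Under ActD it was 0 of 480, which allows a share of up to 0.625% (3 counts of 480), against 2.44% of kept peaks. By score class, from 50 to 60, 60 to 75, 75 to 100 and 100 up, the FB share was 32.9%, 25.5%, 20.9% and 38.6% of lost peaks, against 41.4%, 44.6%, 43.3% and 56.5% of kept peaks. The intervals of the middle classes were separate, and those of the lowest and highest overlapped.

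The overlap with WDR43 followed the place of the peak. At gene starts the FB map covered 26 of 28 lost peaks (92.9%, 76.5 to 99.1) and 93.8% of kept peaks. Within 1 kb of 3′ ends it covered 21.3% of lost peaks (13.4 to 31.3) and 42.5% of kept peaks. Downstream it covered 11 of 141 lost peaks (7.80%, 3.96 to 13.5) and 30.3% of kept peaks (26.5 to 34.3). In all 3 untreated maps the intervals of lost and kept peaks were separate at and past 3′ ends. At starts they overlapped in the FB and cFB knock-in maps and were separate under DMSO, at 57.1% of lost peaks (37.2 to 75.5) and 81.3% of kept peaks (76.8 to 85.2). The difference was not tested across samples, since each WDR43 map is 1 library.

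The same regions were asked about the other forms of Pol II, which the rule did not use. HypoP peaks covered 33.5% and 29.4% of lost peaks in the shWDR43 lists, against 27.5% and 28.1% in the shCtl lists. Ser5P peaks covered 13.3% and 11.3% in shWDR43, against 5.63% and 5.83% in shCtl. Both shWDR43 lists lay above both shCtl lists for each form. An exact two-sided permutation test over the 4 lists gave p = 0.333 for each, the smallest p that 2 lists against 2 can give. The differences in mean share were 3.65 points for hypoP and 6.56 points for Ser5P.

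Few lost Ser2P peaks also lost hypoP or Ser5P, but most had no such peak in shCtl to lose. In hypoP, 122 lost Ser2P peaks had a peak in all 4 lists, 9 in both shWDR43 lists and neither shCtl list, 3 in both shCtl lists and neither shWDR43 list, and 312 in none. In Ser5P the counts were 16, 17, 0 and 396. Only 27 lost peaks had a Ser5P peak in shCtl-1 and 28 in shCtl-2, so few could show such a loss. The 0 of 480 allows up to 0.625% of all lost peaks by the same limit of 3 counts, which is no limit for those few. A peak in both shCtl lists and neither shWDR43 list was seen at 12 of 2421 kept peaks for hypoP and 2 for Ser5P. At kept peaks the mean shares also stood higher in shWDR43 than in shCtl, by 5.12 points for hypoP and 16.4 points for Ser5P. The lists themselves were longer in shWDR43, with 31473 and 24485 hypoP peaks against 19542 and 19561, and 6535 and 7589 Ser5P peaks against 1879 and 2520. The part of list length in these shares was not tested.

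**Figure D3:**
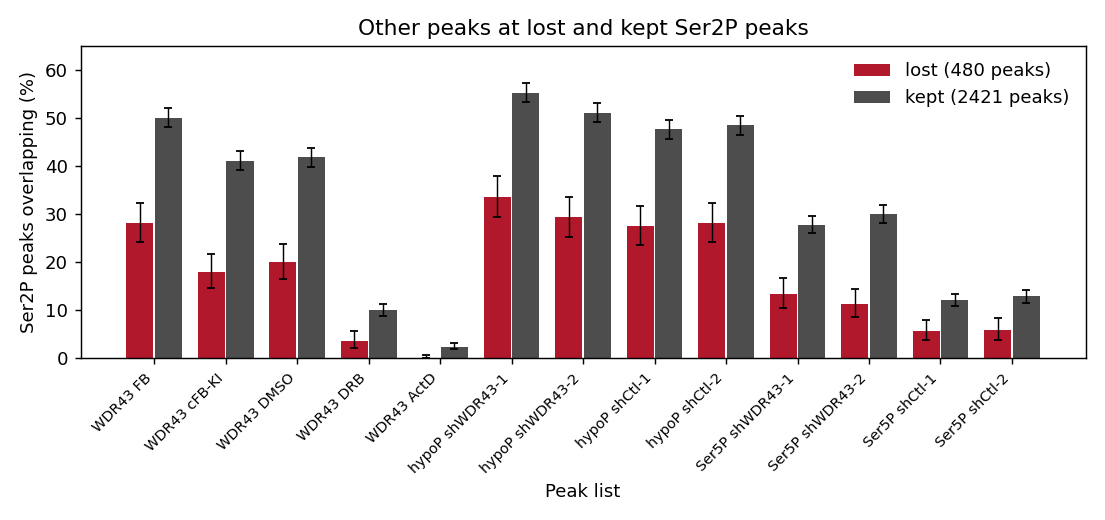
Share of lost and kept Ser2P peaks (vertical axis, %) that share at least 1 bp with a peak of each of 13 other lists (horizontal axis). Bars carry exact 95% intervals, and lost peaks have the lower share in every list shown, from 33.5% against 55.3% in hypoP shWDR43-1 to 0 against 2.44% under ActD.

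RNA was read at the genes that hold a lost peak. Values are FPKM (fragments normalised for transcript length and library size, a unit inferred from the tool named) from a table titled as spike-in, and fold changes are shWDR43 over shCtl on log2(FPKM + 1), which understates the change of low genes. The hairpin target Wdr43 stood at 21.2 and 20.7 FPKM in shWDR43, against 82.3 and 78.2 in shCtl. The 7 stem cell markers checked, Pou5f1, Sox2, Nanog, Zfp42, Esrrb, Dppa5a and Tdgf1, were all present, at 109.2 FPKM or more in every shCtl library, and their sum was 2577 and 2426 FPKM in shWDR43, against 4710 and 4752 in shCtl. Of 17 fibroblast markers 4 stayed under 1 FPKM in every library (Lum and Dcn at 0), and the sum was 342.3 and 458.6, against 333.7 and 354.3. Of 22 mesoderm and endoderm markers 11 stayed under 1 FPKM (Ttr at 0), and the sum was 167.2 and 175.6, against 118.3 and 124.7. None of these 39 fibroblast, mesoderm and endoderm genes had a lost peak, and their part in the RNA values was not tested. In such bulk samples fewer cells of a type and less RNA per cell cannot be told apart.

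RNA of genes with a lost peak was mostly lower in the knockdown, as it was for genes that kept theirs. A lost peak lay at 486 loci of the table (widened by 1 kb), 391 of them coding, and 50 of the 486 also held a kept peak. The filter of a mean of 1 FPKM was passed by 369, of which 44 also held a kept peak. Of the 369, 198 (53.7%) were lower and 16 (4.34%) higher in shWDR43 at an adjusted p under 0.05 in limma (Benjamini-Hochberg over all genes). The background was 42.7% lower and 6.1% higher among all 12452 genes tested. Of 2414 tested genes with kept peaks only, 53.4% were lower and 5.34% higher. The median log2 fold change was -0.53 at lost peaks, -0.48 at kept peaks and -0.39 over all genes. After each library was centred on its own median, which moved every gene up by 0.33, 108 of the 369 were lower and 33 higher, so that lower genes made 76.6% of the calls in place of 92.5%. Over all genes centring gave 20.9% lower and 13% higher. No gene was called by limma once 1 of the 4 libraries was dropped, whichever it was.

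Expression level moves with these figures. In the highest of 5 equal bins of mean FPKM, 80 of 98 genes with a lost peak were lower (81.6%), against 80.3% of genes with kept peaks only and 78.4% of all genes. In the middle bin it was 36.8%, against 38.3% and 39.3%. In the lowest bin it was 10 of 37 (27.0%), against 15.4% and 13.7%. The medians in the lowest bin were -0.33, against -0.18 and -0.15. The differences between the classes were not tested. Genes were also grouped by the place of the lost peak, set by the nearest oriented gene, which need not be the gene counted. Of tested coding genes within 1 kb of a lost peak classed as at a start, 24 of 38 were lower (median -0.68). Near peaks classed as at a 3′ end it was 54 of 109 (-0.41), and near peaks in a body 13 of 32 (-0.27). Within 5 kb, on either side, of peaks classed as downstream it was 97 of 164 (-0.57).

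**Figure D4:**
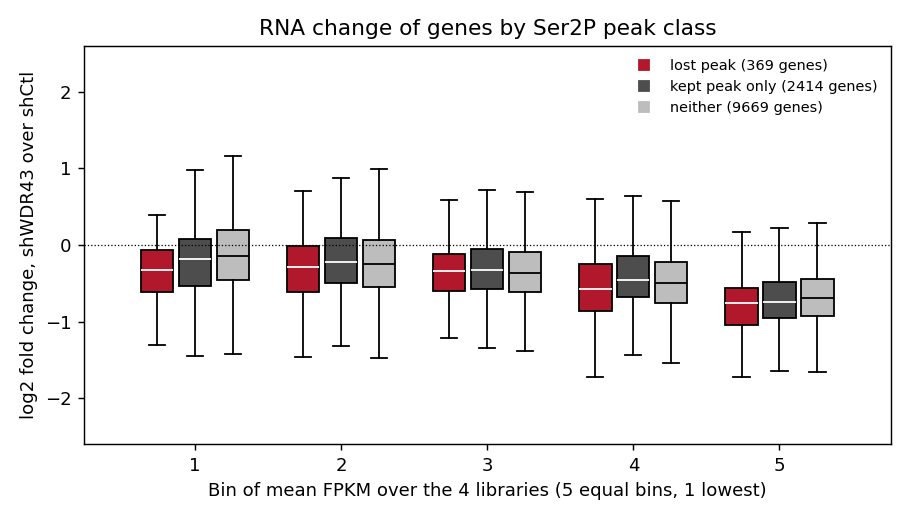
log2 fold change of RNA, shWDR43 over shCtl (vertical axis), by bin of mean FPKM (horizontal axis, 5 equal bins, 1 lowest) for genes with a lost peak, with kept peaks only, and with neither. Boxes are quartiles with the median, whiskers reach 1.5 interquartile ranges, and outliers are not drawn. In the highest bin the median at lost peaks is -0.76 and at kept peaks -0.74.

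Among the largest falls were signalling, cell cycle and metabolic genes whose lost peak lay past the 3′ end. Bmp4, a secreted growth factor that keeps mouse stem cells undifferentiated together with leukemia inhibitory factor, stood at 6.1 and 5.7 FPKM in shWDR43, against 29.4 and 29.1 in shCtl, and its lost peak (4329 bp, score 113.5, chromosome 14, 46999196 to 47003524) had its centre 1836 bp past the 3′ end. Its log2 fold change was -2.13 ± 0.13 (SE, limma adjusted p = 0.000717). Tpi1, the glycolytic triose phosphate isomerase, stood at 34.8 and 34.9 FPKM, against 132.8 and 145.5, with a lost peak of score 120.2 centred 843 bp past the end (-1.97). Chac1, an enzyme that degrades glutathione, was at 0.6 and 0.5 FPKM, against 5.7 in both shCtl libraries (-2.11). The groups did not overlap for these genes, but that was a condition for naming the largest falls and rises. It also held for all 198 lower and all 16 higher genes at lost peaks. Its share over all genes is not given here, so nothing particular to lost peaks can be read from it.

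Ccne1, cyclin E1, stood at 22.2 and 17.8 FPKM in shWDR43, against 71.6 and 79.0 in shCtl (-1.87), with its peak centred 1162 bp past the end. Gbx2, a homeobox factor of the naive state, stood at 16.6 and 12.7 FPKM, against 52.7 and 58.6 (-1.87), and its 5363 bp peak was centred 2979 bp past the end. Glul, glutamine synthetase, stood at 49.6 and 40.9 FPKM, against 159.3 and 160.7 (-1.81). Stmn2, a microtubule regulator of neurons, stood at 39.1 and 36.2 FPKM, against 124.4 and 129.2 (-1.73), and its peak lay inside the locus. AK203938, a short locus on chromosome 17 with no role given, stood at 3.8 and 4.4 FPKM, against 18.7 and 13 (-1.71). All these calls held after centring. XLOC_006494, an unannotated locus inside AK145544 on chromosome 13, had the lowest value (-2.40), but its shCtl libraries disagreed, with 46.8 and 5.8 FPKM, against 2.9 and 2 in shWDR43, and the call was lost after centring, without the trend, without the filter and with a pseudocount of 5. Its value was -0.99 without the first and -3.80 without the second shCtl library.

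Among the genes at the strongest and widest peaks, Fdps, the farnesyl diphosphate synthase of sterol synthesis, stood at 32.8 and 26 FPKM, against 64.3 and 67.2 (-1.14). Zfp57 stood at 126.9 and 122.8, against 216.3 and 216.1 (-0.79). Scd2 stood at 19.5 and 18.6, against 55.7 and 58.2 (-1.53). Smpdl3b, a lipid phosphodiesterase, was lower too (-0.59), a call lost after centring and without the filter. Mog and Xkr8 were below the filter. A few loci held 2 lost peaks. Utp18, a processome protein, had 1 past its end and 1 at its start and was lower (-0.76), a call lost without the filter on low values (limma adjusted p = 0.0653). Trpm3, a cation channel listed at no more than 0.1 FPKM, had 2 adjoining ones inside, and Hist2h4, AK145544, XLOC_006488 and XLOC_017810 also held 2.

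Fewer genes at lost peaks rose. Klf6, a zinc finger transcription factor, stood at 17.5 and 13.6 FPKM in shWDR43, against 6.9 and 6.7 in shCtl (1.08 ± 0.16, SE, limma adjusted p = 0.00263), with its lost peak centred 261 bp past the 3′ end. Tbxa2r, the thromboxane receptor, stood at 2.1 and 1.5 FPKM, against 0.3 and 0.4 (1.05). Its peak lay over the start, with the centre before it, and was also within 1 kb of Cactin. The same centre was 1681 bp past the nearest 3′ end of a tested coding gene. To which gene this peak belonged was not tested. Nipal4, a membrane transporter, stood at 2.2 and 1.5 FPKM, against 0.3 and 0.5 (1.02), and its lost peak, past its 3′ end and over the locus of Adam19, had a score of 140.2. Csnk1g1, a casein kinase, stood at 10.9 and 9.4 FPKM, against 6.3 and 5.2 (0.73). Tubb6, a beta tubulin, stood at 48.2 and 45.4 FPKM, against 26.7 and 29.0 (0.73). The unannotated XLOC_017348 was higher at 9.5 and 7.1 FPKM, against 0 and 2.2 (2.37, or 1.53 without the first shCtl library), and so was AK078239, whose end is reached by the same lost peak as that of Utf1, at 1.8 and 1.6, against 0.2 and 0.4 (1.06). All of these genes were called higher after centring too, and Nipal4, Csnk1g1 and XLOC_017348 missed the threshold without the filter on low values.

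**Figure D5:**
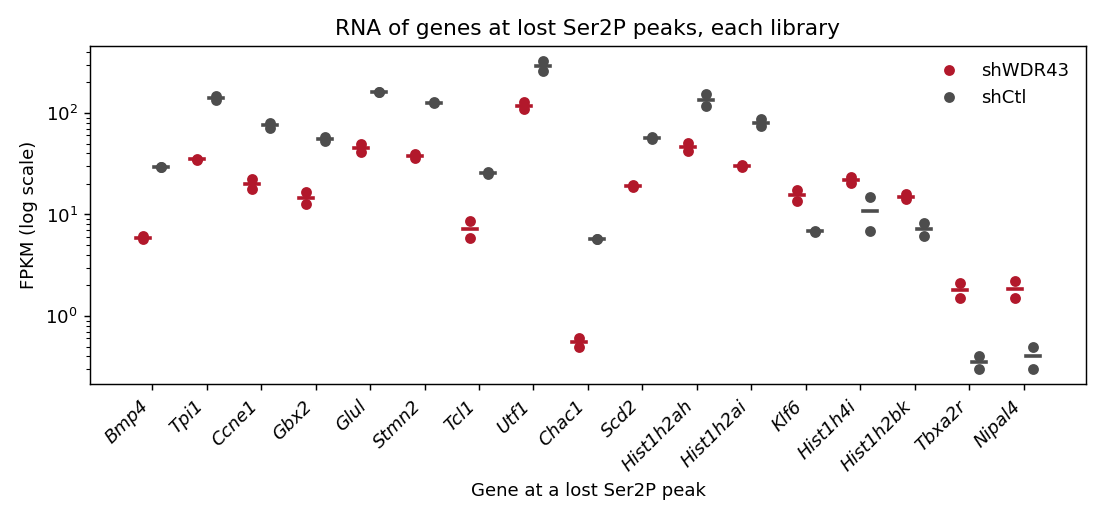
FPKM (vertical axis, log scale) of genes at lost Ser2P peaks (horizontal axis) in the 2 shWDR43 and the 2 shCtl libraries, with points for libraries and lines for means. Bmp4 lies at 6.1 and 5.7 in shWDR43, against 29.4 and 29.1 in shCtl, while Klf6 lies at 17.5 and 13.6, against 6.9 and 6.7.

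Histone genes, looked at after their values were seen, had lost peaks that coincided with most other readouts. Of 64 coding histone loci, 12 had a lost peak (18.8%), against 1.94% of all coding loci. Kept peaks only were at 26 (40.6%), against 12.4% of all coding loci. The 12 loci, each widened by 1 kb, shared 8 lost peaks, 6 of them in the clusters of chromosome 13. Of these, 5 were within 1 kb of 2 histone genes, and 2 touched both genes while 3 touched 1. All 8 had a peak in at least 1 untreated WDR43 map and in both Ser5P shWDR43 lists, and 6 were in all 4 hypoP lists. They held peaks in 7 to 12 of the 13 other lists, while 55.4% of all lost peaks had none.

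Both genes of a divergent pair under 1 lost peak could go in different directions. The peak over Hist1h2ah and Hist1h2bk (chromosome 13, 22127002 to 22128423, score 87.4) is the one over the first promoter printed. Hist1h2ah stood at 50.7 and 42.1 FPKM in shWDR43, against 118.3 and 152.6 in shCtl (-1.52, limma adjusted p = 0.00136). Hist1h2bk stood at 14.1 and 15.8 FPKM, against 6.2 and 8.2 (0.97, adjusted p = 0.00411). Of the other pair printed, Hist1h2ae was lower (-0.99, a call lost without the filter) and Hist1h2bg had 13.1 and 7.6 FPKM, against 8 and 9.6 (0.17, not past the threshold). Hist1h4i stood at 20.6 and 23.6 FPKM, against 6.9 and 14.7 (1.05), and was at 0.55 without the first shCtl library. Hist1h2ag lies on the minus strand, with its 3′ end 888 bases beyond that peak. It was lower (-0.85, or -0.54 without the second shCtl library), a call lost after centring and without the filter on low values. A further peak lay over Hist1h3h (0.59) and 635 bases from Hist1h2ai (-1.38). In all, 4 of 11 tested histone genes at lost peaks were lower and 4 higher, or 3 and 4 after centring, and all 4 higher calls missed the threshold without the filter on low values. Of all 55 tested histone genes 11 were lower and 14 higher, and of the 22 with kept peaks only 2 were lower and 6 higher. These genes are near-identical copies whose reads may be split between them, most of their RNAs lack a poly(A) tail while the libraries were made from purified mRNA, and these values are uncertain for both reasons.

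Genes of the respiratory chain, also chosen after their values were seen, mostly had no other peak on theirs. Of 102 loci, 13 had a lost peak (12.7%), against 1.94% of all coding loci. Kept peaks only were at 31 (30.4%), against 12.4% of all coding loci. No other list had a peak on 10 of the 13, as for 55.4% of all lost peaks, and the difference was not tested. Of these 13, 10 were lower and 0 higher (7 and 0 after centring), with a median of -0.70. That is close to the whole family, in which 78 of 99 tested genes were lower with a median of -0.67, and to those with kept peaks only, of which 27 of 30 were lower. Uqcrh, a complex III subunit, stood at 169.9 and 147.2 FPKM in shWDR43, against 322.2 and 340.5 in shCtl (-1.06). Cycs, cytochrome c, averaged 30.6 FPKM in shWDR43 and 59.6 FPKM in shCtl (-0.95). Ndufa3 (-0.14) and Cox8a (-0.35) did not pass. Of the 45 proteasome loci, 3 had a lost peak past the 3′ end, and all 3 were lower: Psma7 (-1.12), Psme3 (-1.08) and Psma5 (-0.98). Of all 43 tested proteasome genes 38 were lower, as were all 13 with kept peaks only.

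Lists of genes by function held few members. Of 78 cytosolic ribosomal protein loci, 0 had a lost peak and 64 had kept peaks only. Lost peaks were also absent from 32 loci hosting snoRNAs (21 with kept peaks only), 51 of splicing and hnRNP proteins (22), 39 of translation factors (18) and 32 of p53 targets (14). A lost peak lay at 1.94% of all coding loci, and by that share a 0 in a single list is near the background. That share includes the many coding loci with no shared Ser2P peak. Among coding loci that had one, 391 had a lost peak and 2513 kept peaks only. The counts of 0 were not tested against either. Of the 43 abundant cytoskeletal, glycolytic and chaperone genes, Tpi1 had one and 32 kept theirs. Of 49 processome and nucleolar genes, Utp18 and Utp3 had one and both were lower (-0.76 and -0.84), and 46 of the whole list were lower. Of 28 factors of 3′ end processing and termination, Xrn2 (-0.70), the nuclease that degrades RNA behind the cleavage site, and Pcf11 (-0.89), a cleavage factor, had one and both were lower, with only 1 of these calls left after centring. In that list 24 were lower and 0 higher.

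Of 37 genes for kinases and phosphatases of the Pol II tail and for elongation factors, 3 had a lost peak and 10 kept peaks only. Rtf1, a factor of the Paf1 complex, stood at 10 and 9.5 FPKM in shWDR43, against 19.5 in both shCtl libraries (-0.93). Ccnt1, the cyclin of the kinase that phosphorylates serine 2, had 12.7 and 10.4, against 15.9 and 12.1 (-0.25, not past the threshold, and 0.08 after centring). Its lost peak lay outside the locus, centred 2069 bp before the start, and was also within 1 kb of 4930415O20Rik and 9330020H09Rik. Ell3, an elongation factor, had 5.5 and 3.1, against 3.6 and 3.2 (0.23, not past the threshold). In that list 24 of 37 were lower and 0 higher. Of 36 pluripotency genes, 3 had a lost peak and 9 kept peaks only, and 28 of the list were lower. Utf1 stood at 127.9 and 108.9 FPKM, against 258.0 and 322.8 (-1.28). Tcl1, a coactivator of Akt, stood at 5.8 and 8.6, against 25.2 and 26.2 (-1.72). Fbxo15, whose locus also held a kept peak, had 95.8 and 94.0, against 87.5 and 73.6 (0.24), not past the threshold. It was higher after centring (0.57, limma adjusted p = 0.00822).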

How the data were processed

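Data were taken as the authors deposited them, 1 peak list per ChIP library, with coordinates on mm9 and a peak name and score, and 1 table of FPKM values with 1 decimal for 38582 loci in 4 RNA libraries. Bowtie2 (ChIP) and TopHat and Cufflinks (RNA) are named per the submitters' processing notes. The unit FPKM of the deposited table was inferred from Cufflinks. Not given in the sources used here are the meaning of the deposited score, the peak caller's settings and the spike-in scaling. The score and FPKM carry no read depth, and no batch is named. Peaks shared at least 1 bp to count as overlapping.

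RNA was tested with limma 3.58.1 (R 4.3.3) on log2(FPKM + 1) of loci with a mean FPKM of at least 1, with an intensity trend and Benjamini-Hochberg adjustment at 0.05. The fit and the overlaps were tested on simulated data. Shares carry exact 95% intervals (scipy 1.17.1), a count of 0 the limit of 3 counts, and 2 lists against 2 were compared by an exact permutation test. Strand came from RefSeq. With no stated strand in the counting, overlapping and antisense loci are uncertain.

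The members, gene lists and tests were chosen with earlier results of these data known. Named genes are Wdr43, those at the 6 highest scoring and 3 widest lost peaks, the 5 with most lost peaks, the 10 largest called falls and rises whose groups do not overlap, those at the edge of the rule, and the 2 highest and 2 lowest of each list with at least 3 lost-peak genes. Histone, respiratory chain, proteasome and zinc finger families, and list members beyond this rule, were named after their values were seen. 1 locus that the rule names is not reported here. Of 8 Zfp genes with a lost peak 7 were tested, and 5 were lower and 0 higher (2 and 0 after centring), while 118 of all 283 tested Zfp genes were lower. Alternatives covered the pseudocount, filter, centring, trend, replicate block, each library left out, locus width, overlap and score minimum.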

Additional observations from a re-analysis of the deposited data

How the results depend on the processing

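The number of lost peaks was 480 and stayed within 1.5 times under a 50% overlap, a 1 kb gap or peaks taken from shCtl-2, but was 23 with scores of 100 and above in both shCtl lists. With 1 of the 4 Ser2P lists left out it ran from 739 to 1398.

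Lower and higher genes at lost peaks numbered 198 and 16, and their median was -0.53. The counts were 108 and 33 after centring (median -0.20), 99 and 5 without the filter (median -0.38), 18 and 3 at lost peaks of score 100 and above, and 123 lower with loci not widened. A pseudocount of 5 gave a median of -0.34. The numbers 1 and 2 were not shown to pair the RNA samples (correlation of deviations 0.05), and the replicate block gave 213 and 17 and ended, of the named genes, the call of Hist1h4d (limma adjusted p = 0.0527). Leaving out any library gave 0 and 0 in limma, on 1 residual degree of freedom, with 151 to 184 lower and 11 to 14 higher at an unadjusted p under 0.05, and a median from -0.58 to -0.45. The signs of 7 named genes that had not passed turned in 8 fits. After centring Ankfy1 was at 0.14 and Ccnt1 at 0.078. With 1 library left out, AK145544 ran from -1.64 to 0.35, Hist2h4 from -0.62 to 1.57, Ell3 from -0.10 to 0.56, Hist1h3i from -0.033 to 0.72 and Hist1h2bg from -0.18 to 0.53. Of called histone genes, Hist1h4d (0.77) was at 0.43 without the second shWDR43 library.

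With lost peaks of score 100 and above (44 peaks), Ser5P covered 22.7% in each shWDR43 list, against 11.4% and 9.09% in shCtl, hypoP 38.6% and 34.1%, against 34.1% in shCtl-1, and WDR43 FB 38.6%. 0% lay inside loci and 40.9% outside. Counting peaks within 1 kb gave hypoP 40.2% and 34.2% in shWDR43, against 32.1% in shCtl-1, and WDR43 34.2% (FB), 22.9% (cFB knock-in) and 26.04% (DMSO). Asking for 50% of the Ser2P peak gave hypoP shWDR43-1 28.7% and WDR43 11.7% (FB), 13.3% (cFB knock-in), 3.75% (DMSO) and 0% (DRB). Without regard to strand, 59.8% of lost peaks lay within 1 kb of an end, 6.88% inside and 33.3% outside, or 74.0%, 3.54% and 22.5% within 5 kb. The cause of these moves was not tested. Depth of the ChIP and RNA libraries is unknown and limits what an absent peak or a low FPKM can show.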
